A study of Mus musculus with 6 samples.

Results

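The zinc finger protein genes that regulatory T cells (Treg) of the colon and its draining lymph nodes express were compared between the 2 sites. They were chosen by name and by detection. A gene counted if its symbol on the array began with Zfp and a digit, leaving out Zfp36, Zfp36l1 and Zfp36l2, and if at least 1 of its probes had a deposited detection fraction above 0.95 on at least 3 of the 6 arrays. This rule selected 186 of the 328 Zfp genes on the array, through 254 of their 598 probes. The detection fractions come from the same hybridisations as the levels, so a gene detected on the arrays of only 1 group was bound to differ, and counts over the 186 are descriptions.

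The study profiled total RNA of sorted TCRβ+CD4+Foxp3+ T cells on Illumina bead arrays, which read 1 biotin-labelled sample each. There were 3 samples of colonic lamina propria Treg (cLP Treg) and 3 of mesenteric lymph node Treg (MLN Treg, whose titles read MSN). All 6 came from untreated steady-state C57BL/6 mice of genotype Foxp3gfp, so both groups carry that allele, and the RNA went through 2 rounds of amplification. Whether separate mice or one pool gave the 3 samples of each site is not stated in the labels, and p-values therefore reflect the spread among these samples, which may be technical.

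Levels are log2 values after background correction and quantile normalisation, a difference subtracts the MLN Treg mean from the cLP Treg mean and is given with its standard error, and a gene counts as higher or lower where limma's adjusted p over all 9157 genes tested is under 0.05. Between 32.68% and 35.43% of probes were detected per array. The ratio of signal to background ran from 2.61 to 3.18 on the cLP arrays and from 3.33 to 4.10 on the MLN arrays, with no overlap. Of 11 measured genes that define Treg and T cells 4 were higher and 1 was lower, and Foxp3, the lineage factor of Treg, had nearly equal means, 13.58 for cLP Treg against 13.59 for MLN Treg. Markers of other cells also differed between the groups. Of 6 measured stromal and endothelial markers out of 15 on the array, 4 were higher in cLP Treg, and the log2 of their summed level was 11.61 to 12.16 in cLP Treg against 9.69 to 10.16 in MLN Treg. Of 5 measured B cell markers out of 9 on the array, 1 was lower, with summed levels of 7.85 to 8.10 in cLP Treg against 8.83 to 9.70 in MLN Treg. Both measured plasma cell markers (of 6), both measured mast cell and innate lymphoid markers (of 12) and 3 of 4 measured cytotoxic markers (of 9) were higher, while 2 of 3 measured myeloid markers (of 16) were lower. None of 5 measured epithelial markers (of 14) and not the 1 measured erythroid marker (of 4) passed the test. The part of these cells and of the signal ratio in the differences given here was not tested, and in sorted bulk samples a smaller share of cells with a transcript and less of it per cell cannot be told apart.

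Zinc fingers are small protein folds held by a zinc ion, and genes named Zfp encode proteins that carry them, mostly several in a row to read DNA. Many Zfp genes encode KRAB zinc finger proteins, which bind DNA through their fingers and recruit Trim28 and the histone methyltransferase Setdb1 to silence retroelements and imprinted regions. Others act as activators, as corepressors or as RNA-binding proteins, and a few control lymphocyte development.

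The Zfp genes were lower in cLP Treg more often than higher. Of the 186, 52 were lower (28%), where 20.4% of all genes tested were lower, and 14 were higher (7.53%), where 12.1% of all genes were higher. The other 120 did not pass the test. Their median difference was -0.51 on the log2 scale, with 139 of 186 differences below 0, while the median over all genes was -0.21. All 3 cLP values lay below all 3 MLN values for 72 of the 186 Zfp genes and above them for 17 of the 186. Of all 9157 genes tested they lay below for 2759 (30.1%) and above for 1542 (16.8%). Every one of the 66 called Zfp genes was among those 72 and 17. By the fitted difference, also where only a bound is known, 46 of the 52 lower ones and 8 of the 14 higher ones differed by more than 1 on the log2 scale. That share was not counted over all genes. The surplus of lower over higher Zfp genes was present under every one of the 16 alternative settings. Over all genes tested, lower genes also outnumbered higher ones, except with the median difference of all genes set to 0. The size of the Zfp surplus followed the scaling and the filter. Higher genes made up 21.2% of the called Zfp genes in the values used here, 8.05% (7 higher, 80 lower) with arrays scaled to their medians and 9.59% (7 higher, 66 lower) in the authors' deposited log2 values. Over all genes tested that share moved too, with 37.3% in the values used here, 21.5% with median scaling, 24.1% in the deposited values and 50.4% with the median difference of all genes set to 0. Scaling to medians also moved the median difference of all genes to -0.51, and setting that median to 0 left 16 higher and 43 lower Zfp genes (27.1% higher). Under detection on all 6 arrays, higher genes made up 33.3% of the called Zfp genes (12 higher, 24 lower), against 37.6% over all genes.

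Detection showed the same side. Over all 328 Zfp genes, named without regard to signal, 47.6%, 48.5% and 49.4% were detected on the 3 cLP arrays, against 57.6%, 54.3% and 58.8% on the 3 MLN arrays. The 3 cLP shares all lay below the 3 MLN shares. Over all 19057 named genes the shares were 46.6%, 45.6% and 46.8% on the cLP arrays against 47.7%, 45.8% and 47.7% on the MLN arrays, where the ranges overlapped. The 186 expressed Zfp genes were chosen by these same detection fractions, so their counts are descriptions shaped by the rule. They were detected in numbers of 149, 145 and 150 on the cLP arrays against 179, 174 and 178 on the MLN arrays. Their median level was 6.93, 7.12 and 6.98 in the cLP Treg samples, against 7.56, 7.73 and 7.60 in the MLN Treg samples. For the Zfp genes detected on all 6 arrays it was 8.41, 8.09 and 8.16 in cLP Treg against 8.49, 8.68 and 8.36 in MLN Treg. Over all genes tested it was 8.27, 8.29 and 8.37 in cLP Treg against 8.49, 8.51 and 8.48 in MLN Treg.

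**Figure D1:**
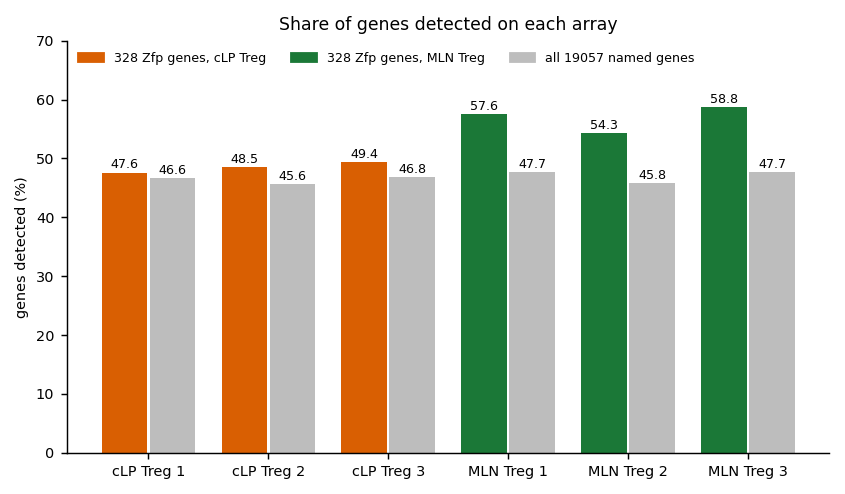
Share of genes detected (percent, detection fraction above 0.95) on each of the 6 arrays, for the 328 Zfp genes (coloured bars) and all 19057 named genes (grey bars). The Zfp shares were 47.6% to 49.4% on the cLP arrays and 54.3% to 58.8% on the MLN arrays, while the shares of all genes lay between 45.6% and 47.7%.

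The rule itself shaped part of the surplus of lower genes among the 186. Of the 186, 111 were detected on all 6 arrays, 60 on some arrays of either group, 13 on MLN arrays only with no cLP array, and 2 on cLP arrays only. All 13 of the MLN-only genes were lower and both cLP-only genes higher, which the rule nearly fixes, as 205 of 228 MLN-only genes among all genes were lower too. Among the 111 detected on all 6 arrays, 23 were lower (20.7%, against 18.9% of all genes detected on all 6) and 11 were higher (9.91%, against 11.7%). Their median difference was -0.30, against -0.19 over all genes of that kind. Among the 60 of mixed detection, 16 were lower (26.7%, against 19.5% of all such genes) and 1 was higher (1.67%, against 7.47%). The members whose detection did not depend on 1 group thus stood closer to the background shares than the whole set did.

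The share of lower genes differed with probe brightness. Of 39 Zfp genes with a mean level under 6, 35.9% were lower, against 14% of all genes in that range. Most of these lower genes were detected on MLN arrays only, where the rule nearly fixes the call, so this share is partly set by the rule. The shares were 28.6% of 84 genes between 6 and 8 (24.8% of all genes), 26.8% of 41 between 8 and 10 (22.1%) and 13.6% of 22 above 10 (17%). The median differences showed no such order, at -0.39 under 6, -0.74 from 6 to 8, -0.48 from 8 to 10 and -0.07 above 10. Those of all genes were -0.12, -0.38, -0.24 and -0.16 in the same ranges. Dim probes carry the smallest margin over background, the cLP arrays had the lower ratio of signal to background, and the part of that ratio in these shares was not tested.

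**Figure D2:**
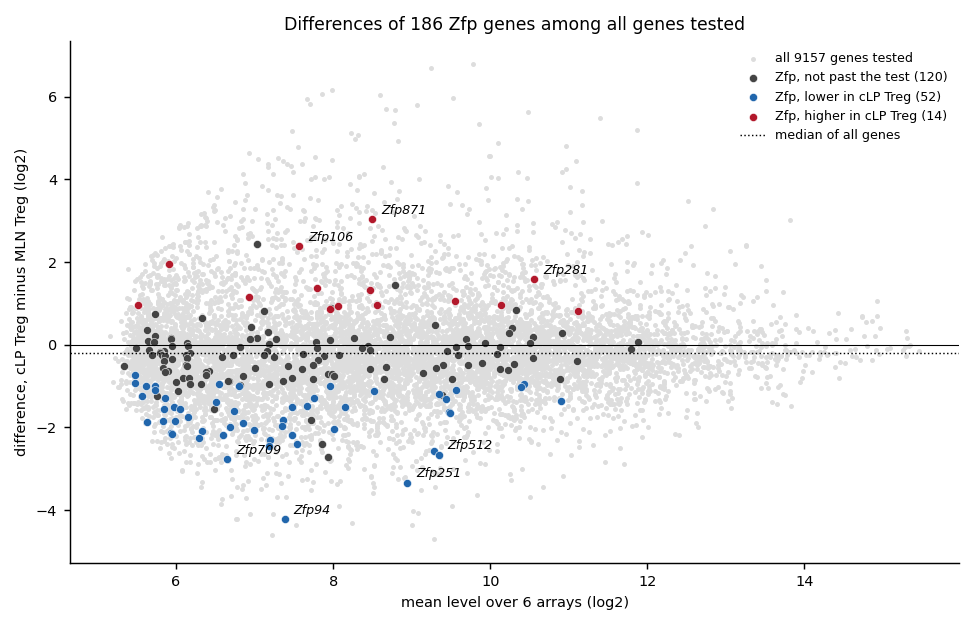
Difference (cLP Treg minus MLN Treg, log2) against mean level over the 6 arrays (log2) for the 9157 genes tested (light grey) and the 186 Zfp genes, of which 52 were lower (blue), 14 higher (red) and 120 not past the test (dark grey). The dotted line marks the median of all genes at -0.21; the fitted difference is plotted also for the 15 genes undetected in 1 group.

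Among the falls, Zfp94 had the largest difference. Its levels were 4.66, 4.55 and 6.61 in the cLP Treg samples, against 9.26, 9.61 and 9.61 in the MLN Treg samples, and its probe was detected on 1 cLP array and on all 3 MLN arrays. The MLN values lay close together and all above the highest cLP value. The difference was -4.22 ± 0.53 (adjusted p = 0.00139, limma), part of which is set by background in the cLP mean. Zfp61, which lies next to Zfp94 among the measured genes of chromosome 7, had levels of 5.74, 6.15 and 6.26 in cLP Treg against 8.44, 8.63 and 7.98 in MLN Treg. It was detected on all 6 arrays and differed by -2.30 ± 0.26 (adjusted p = 0.000967). Both calls held under every alternative that tested them.

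Zfp512 had the clearest fall among genes detected on all arrays. It measured 8.0, 8.09 and 7.95 in cLP Treg against 11.02, 10.74 and 10.25 in MLN Treg, a gap several times the spread within either group. The difference was -2.66 ± 0.25 (6.32-fold lower, adjusted p = 0.000489), and a second probe gave -2.35 ± 0.28. Zfp41 behaved alike, with 6.51, 6.64 and 6.0 in cLP Treg against 8.71, 8.71 and 8.32 in MLN Treg, a difference of -2.19 ± 0.26 (adjusted p = 0.00104). Its second probe gave -2.65 ± 0.25.

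Other falls were large but rested on scattered cLP values. Zfp251 measured 7.57, 5.55 and 8.71 in cLP Treg against 10.63, 10.89 and 10.31 in MLN Treg (-3.33 ± 0.71, adjusted p = 0.0109). Its second probe, detected on all 6 arrays, gave -2.50 ± 0.48. The cLP samples spanned more than 3 log2 units while the MLN samples stayed within 1. Zfp709 measured 6.28, 4.69 and 4.82 in cLP Treg against 8.17, 7.74 and 8.19 in MLN Treg (-2.77 ± 0.43, adjusted p = 0.00322). Its second probe, detected on all 6 arrays, differed by only -0.52 ± 0.24 and did not pass (adjusted p = 0.14). Zfp446 measured 5.30, 7.10 and 5.46 in cLP Treg against 8.60, 8.59 and 8.04 in MLN Treg (-2.46 ± 0.48, adjusted p = 0.00783). In each of these 3 genes the groups did not overlap.

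Another 3 of the 10 largest falls lost their calls when 1 sample was left out, which also leaves fewer arrays to test. Zfp623 measured 9.02, 6.41 and 8.57 in cLP Treg against 10.55, 10.76 and 10.39 in MLN Treg, and its difference of -2.57 ± 0.62 (adjusted p = 0.0176) fell short of the threshold once MLN sample 1, 2 or 3 was left out (adjusted p = 0.0573, 0.0625 and 0.0537; range across settings 0.00255 to 0.0713), while its differences in those 3 fits were -2.58, -2.48 and -2.66. Zfp84 measured 4.72, 7.34 and 6.93 in cLP Treg against 8.24, 8.62 and 9.35 in MLN Treg. Its difference of -2.41 ± 0.66 (adjusted p = 0.0282) became -1.60 without cLP sample 1, and the gene no longer passed once MLN sample 1, 2 or 3 was left out, at differences of -2.65, -2.46 and -2.1 (adjusted p = 0.0575, 0.076 and 0.102; range across settings 0.0115 to 0.104). Zfp661 measured 4.75, 6.91 and 4.86 in cLP Treg against 8.14, 7.71 and 7.24 in MLN Treg. Its difference of -2.19 ± 0.58 (adjusted p = 0.024) lost its call without cLP sample 1 or any 1 of the MLN samples (adjusted p = 0.0515 to 0.0871; range across settings 0.00207 to 0.089), with differences of -2.42 to -1.81 in those fits. The values of all 3 genes still separated the groups, with the cLP samples the more scattered.

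That scatter was general. The median SD over the 186 Zfp genes was 0.43 among cLP samples and 0.31 among MLN samples. Over all genes tested it was 0.38 among cLP samples and 0.25 among MLN samples. The SD was larger among cLP samples for 125 of the 186.

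For the 13 Zfp genes that no cLP array detected, the reported probe gives only a lower bound on the fall. Zfp710 measured 5.10, 5.05 and 5.32 in cLP Treg against 7.38, 7.58 and 7.30 in MLN Treg, at least 3.76-fold lower (adjusted p = 0.000449). Zfp273 was at least 2.86-fold lower, Zfp239 at least 2.80-fold and Zfp160 at least 2.65-fold. The bounds of the other 9 ran from 1.25-fold for Zfp286 to 2.37-fold for Zfp944. These bounds compare the mean MLN level with the dimmest level that counted as detected on each cLP array. For Zfp414, bounded at 1.65-fold, another of its probes was detected on a cLP array, so the gene as a whole was above background there.

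Among the 14 Zfp genes that were higher in cLP Treg, Zfp871 had the largest rise. Its levels were 10.14, 10.69 and 9.21 in the cLP Treg samples, against 7.48, 6.97 and 6.46 in the MLN Treg samples. The lowest cLP value lay well above the highest MLN value, and all 6 arrays detected the probe. The difference was 3.05 ± 0.43 (8.25-fold higher, adjusted p = 0.00213), and it passed under all alternatives. Zfp106, an RNA-binding protein needed for motor neuron function in mice, measured 9.21, 8.76 and 8.30 in cLP Treg against 5.40, 7.09 and 6.62 in MLN Treg. It differed by 2.39 ± 0.46 (adjusted p = 0.00717), and a second probe gave 2.29 ± 0.31. Zfp703, whose human counterpart is a transcriptional corepressor amplified in breast cancer, was detected on all 3 cLP arrays and on no MLN array. It measured 6.80, 6.74 and 7.14 in cLP Treg against 4.85, 4.97 and 5.0 in MLN Treg, at least 2.51-fold higher (adjusted p = 0.00086), and its second probe differed in the same direction. Zfp955a, the other gene seen on cLP arrays alone, was at least 1.34-fold higher.

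The smaller rises were less firm. Zfp266 measured 8.62, 9.48 and 9.30 in cLP Treg against 7.25, 8.58 and 7.59 in MLN Treg (1.33 ± 0.40, adjusted p = 0.0376). Its second probe, undetected on the cLP arrays, was lower in cLP Treg (-1.13 ± 0.24). Leaving out MLN sample 1 or 3, or cLP sample 2 or 3, ended the call (adjusted p = 0.13, 0.119, 0.102 and 0.0705; range across settings 0.0193 to 0.822). The difference was 0.80 in the deposited values and 0.10 over the mean of its detected probes. Zfp607a measured 9.56, 10.51 and 10.20 in cLP Treg against 9.13, 9.20 and 8.75 in MLN Treg (1.06 ± 0.30, adjusted p = 0.0295), and only leaving out cLP sample 1 among the 6 samples kept its call (adjusted p = 0.0546 to 0.102 without the others; range across settings 0.0114 to 0.308). Its second probe gave -0.04 ± 0.58. The difference was 0.58 with median scaling, 0.60 in the deposited values and 0.51 over the mean of its probes, none past the test.

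Zfp954 measured 8.93, 8.84 and 9.32 in cLP Treg against 8.14, 8.26 and 7.83 in MLN Treg (0.95 ± 0.24, adjusted p = 0.0201). Leaving out MLN sample 1 or MLN sample 3 ended its call at differences of 0.99 and 0.83 (adjusted p = 0.0658 and 0.0723; range across settings 0.01 to 0.123). Median scaling and the deposited values also ended it and gave smaller differences of 0.53 and 0.50, and so did the replicate block (adjusted p = 0.0614). Zfp654 measured 10.71, 10.73 and 10.38 in cLP Treg against 9.63, 9.63 and 9.70 in MLN Treg (0.95 ± 0.21, adjusted p = 0.0125), a narrow spread in both groups, and lost its call without MLN sample 1 (adjusted p = 0.0552; range across settings 0.00486 to 0.564). Median scaling (0.47) and the mean of its probes (0.18) also ended the call, and the deposited values gave 0.51 and kept it. Of its other probes 1 was higher (0.74 ± 0.23) and 1 lower (-1.16 ± 0.35). Only 4 of the 14 rises, those of Zfp871, Zfp106, Zfp703 and Zfp91, passed under every alternative that tested them, against 26 of the 52 falls. These shares do not compare like with like, and they were not counted over all genes. The median difference of all genes was -0.21 in the values used here and -0.51 with median scaling, which favours falls, and 0 where set to 0. Genes without a probe detected on every array were not tested under that filter. Undetected in 1 group were 13 of the falls and 2 of the rises, where the rule nearly fixes the call.

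**Figure D3:**
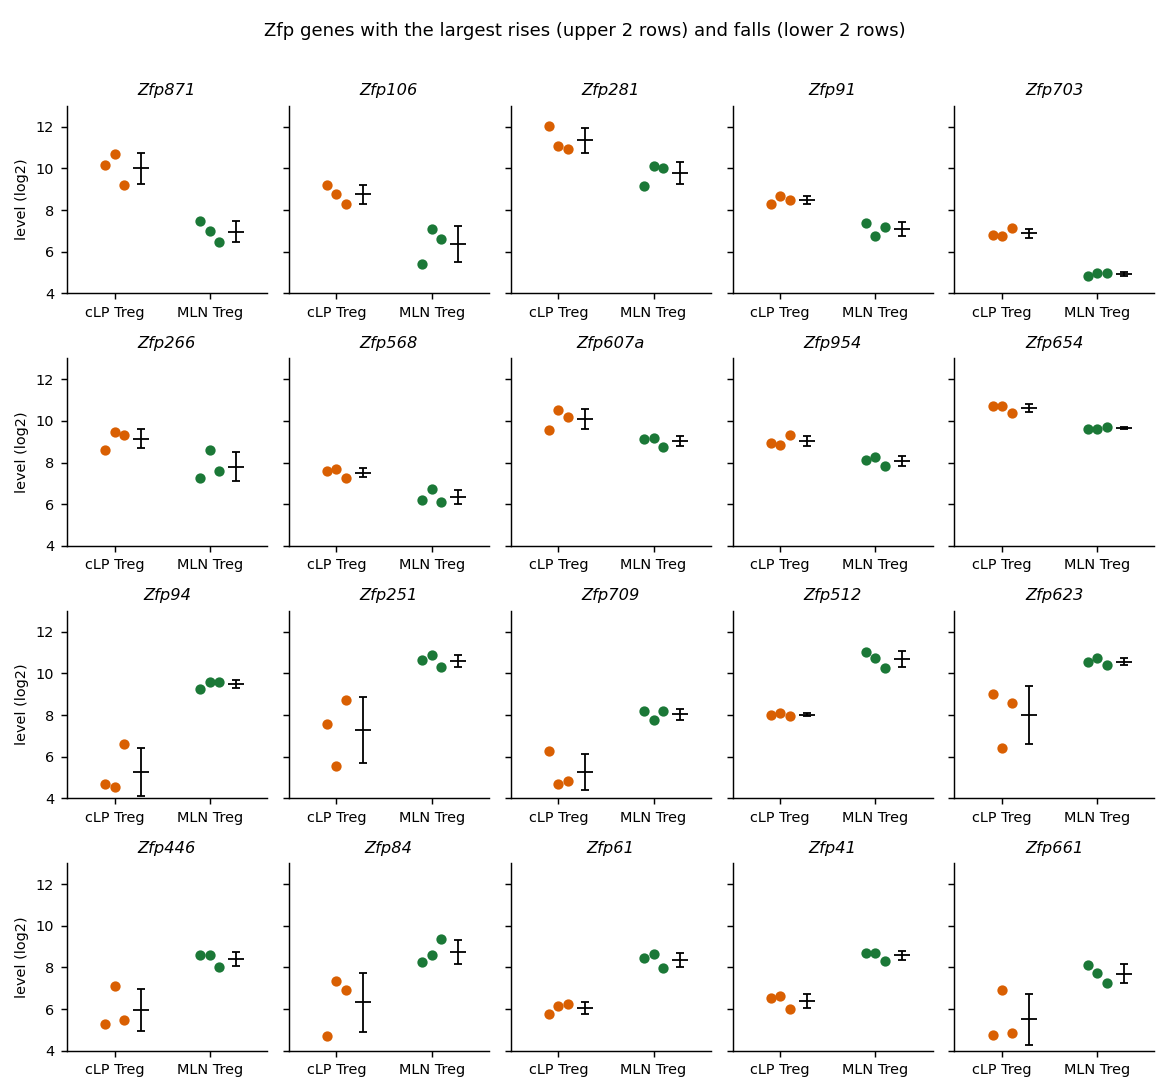
Levels (log2) of the 10 Zfp genes with the largest rises (upper 2 rows) and the 10 with the largest falls (lower 2 rows), ranked by the fitted difference or its bound. Points are the 3 cLP Treg samples (orange) and the 3 MLN Treg samples (green), and bars give the mean ± SD. In all 20 genes the groups do not overlap.

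The regions around the annotated start of transcription are shown for 4 of these genes. The genes are the neighbours Zfp94 and Zfp61, which both fell, and Zfp871 and Zfp281, which rose. Each line reads 5′ to 3′ in the direction of transcription, from 250 bases before to 50 after the annotated start, from RefSeq on GRCm38.p6. They lie at chr7:24316617-24316916 (minus strand) for Zfp94, chr7:24299500-24299799 (minus strand) for Zfp61, chr17:32788238-32788537 (minus strand, 1 of 2 annotated starts) for Zfp871 and chr1:136624651-136624950 (plus strand) for Zfp281. Capitals mark matches on either strand to the letters GGGCGG, the GC box that Sp1 family factors bind, or TTCTGGGA, the core of the site bound by ZNF143, an activator of many promoters.
Zfp94: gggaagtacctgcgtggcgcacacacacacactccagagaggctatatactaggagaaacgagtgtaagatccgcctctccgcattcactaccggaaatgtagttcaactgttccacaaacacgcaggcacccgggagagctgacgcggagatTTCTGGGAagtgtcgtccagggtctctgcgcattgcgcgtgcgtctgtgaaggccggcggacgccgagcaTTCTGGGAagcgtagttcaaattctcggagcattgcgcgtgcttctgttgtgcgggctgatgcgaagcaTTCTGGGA
Zfp61: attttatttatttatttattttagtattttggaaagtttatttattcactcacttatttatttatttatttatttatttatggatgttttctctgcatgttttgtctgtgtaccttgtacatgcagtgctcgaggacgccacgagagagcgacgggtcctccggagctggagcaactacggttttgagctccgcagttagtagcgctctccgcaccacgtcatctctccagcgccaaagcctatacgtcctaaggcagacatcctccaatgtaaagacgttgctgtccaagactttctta
Zfp871: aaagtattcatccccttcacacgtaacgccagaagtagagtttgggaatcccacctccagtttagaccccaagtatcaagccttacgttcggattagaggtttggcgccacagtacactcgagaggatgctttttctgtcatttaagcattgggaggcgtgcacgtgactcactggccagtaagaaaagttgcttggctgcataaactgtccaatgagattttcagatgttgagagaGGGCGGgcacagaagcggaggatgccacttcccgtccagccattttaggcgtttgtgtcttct
Zfp281: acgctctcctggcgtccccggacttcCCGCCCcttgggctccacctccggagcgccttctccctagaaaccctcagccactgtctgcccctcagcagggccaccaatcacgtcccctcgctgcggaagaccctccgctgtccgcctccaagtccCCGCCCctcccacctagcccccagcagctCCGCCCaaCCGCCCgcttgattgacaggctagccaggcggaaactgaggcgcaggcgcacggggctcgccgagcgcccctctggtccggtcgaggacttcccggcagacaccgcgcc

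The window of Zfp94 holds 3 copies of TTCTGGGA and no GC box, that of Zfp281 holds 4 GC boxes, that of Zfp871 holds 1, and that of Zfp61 holds neither motif. The window of the other annotated start of Zfp871, not shown, holds neither motif. RefSeq windows were matched to 155 of the 186 Zfp genes. Shares are over genes with a window, and a gene held a motif if any of its windows did. The letters TTCTGGGA were searched after the window of Zfp94 had been seen. They were in 15 of the 155 Zfp genes (9.68%), against 3.87% of all tested genes and 3.65% of all 27025 genes with a window. They were in 6 of 41 lower Zfp genes, 2 of 11 higher ones and 7 of 103 that did not pass. The lower ones were Zfp94, Zfp84, Zfp661, Zfp273, Zfp790 and Zfp429, and the higher ones Zfp955a and Zfp212. The GC box was in 53.5% of the Zfp genes, against 68.2% of all tested genes. The letters CCAAT were in 49.7% of the Zfp genes (43.1% of all tested genes), GCATGCGC of NRF1 in 8.39% (6.27%) and TGACGTCA of CREB in 5.16% (3.72%). CCGGAAG of ETS factors was in 31 of the 155 Zfp genes and in 21.8% of all tested genes. The number of CpG, averaged over the windows of a gene, had a median of 17 for the Zfp genes and 21 for all tested genes. No match says more than that these letters lie in the window.

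Role groups are given by their counts, beside 12.1% higher and 20.4% lower among all genes tested. Among 7 measured Zfp genes with a known part in lymphocytes, 2 were higher (28.6%), none was lower by the test, and 5 did not pass, with a median difference of -0.06. Zfp281, a transcription factor best known from pluripotent stem cells, measured 12.05, 11.06 and 10.96 in cLP Treg against 9.17, 10.11 and 10.02 in MLN Treg. All cLP values lay above the MLN values, and the difference was 1.59 ± 0.39 (adjusted p = 0.018). Its call ended without MLN sample 1 (adjusted p = 0.0662; range across settings 0.012 to 0.0662), and a second, equally well detected probe gave 0.36 ± 0.34, which did not pass. Zfp91, a ubiquitin ligase that acts on the noncanonical NF-kB kinase and is required for Treg maintenance in mice, measured 8.28, 8.67 and 8.49 in cLP Treg against 7.38, 6.74 and 7.18 in MLN Treg. It differed by 1.38 ± 0.25 (2.61-fold higher, adjusted p = 0.0058) and passed under all alternatives.

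Zfp131 had a difference of 0.83 ± 0.28 with groups that did not overlap, just outside the threshold (adjusted p = 0.0537), and Zfp35 one of -0.89 ± 0.30 (adjusted p = 0.0585). Zfp335, needed for the maturation of naive T cells, measured 6.82, 6.52 and 7.0 in cLP Treg against 6.88, 6.98 and 6.65 in MLN Treg (-0.06 ± 0.23). Zfp318, which controls the choice between IgM and IgD transcripts in B cells, had a difference of -0.08 ± 0.32, and both genes' groups overlapped. Zfp148 had a reported probe that did not pass (-0.07 ± 0.73) and a second, dimmer probe that was lower (-2.39 ± 0.54, adjusted p = 0.0137).

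Of 8 measured Zfp genes that act on RNA or translation, 2 were higher and 2 lower (25% each), with a median of -0.21. Beside Zfp106, Zfp207, which loads the checkpoint protein Bub3 onto kinetochores, measured 8.49, 8.45 and 8.64 in cLP Treg against 7.14, 7.59 and 8.02 in MLN Treg (0.94 ± 0.27, adjusted p = 0.0317). Its call ended in 10 of 16 alternatives, among them without MLN sample 1 or 2 or any 1 of the cLP samples (adjusted p = 0.0585 to 0.118; range across settings 0.0167 to 0.977). The difference was 0.59 with median scaling, 0.49 in the deposited values and 0.04 over the mean of its probes. Zfp346, which binds double-stranded RNA, measured 8.12, 9.20 and 8.67 in cLP Treg against 10.04, 10.24 and 10.57 in MLN Treg (-1.62 ± 0.32, adjusted p = 0.00804). Zfp638, whose human counterpart brings the HUSH silencing complex to unintegrated retroviral DNA, measured 8.98, 8.49 and 8.80 in cLP Treg against 9.98, 9.96 and 9.92 in MLN Treg (-1.20 ± 0.22, adjusted p = 0.00603). Both falls separated the groups and passed under all alternatives. For Zfp346 a second, dimmer probe, detected on all 6 arrays, gave -0.07 ± 0.41 and did not pass (adjusted p = 0.917, limma). The second probe of Zfp638 gave -1.30 ± 0.26. Zfp593, with a part in ribosome assembly, had -0.76 ± 0.26 (adjusted p = 0.0608), Zfp326 0.47 ± 0.52, Zfp622 -0.24 ± 0.23 and Zfp830 -0.19 ± 0.38, and these 4 did not pass.

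Of 17 measured Zfp genes of general chromatin and transcription control, 1 was higher (Zfp703, 5.88%), 3 were lower (17.6%, near the share of all genes) and 13 did not pass, with a median of -0.33. Zfp644, whose human counterpart works with the histone methyltransferases G9a and GLP, measured 6.87, 6.97 and 7.13 in cLP Treg against 8.98, 8.92 and 9.20 in MLN Treg. Both groups were tight, and the difference was -2.04 ± 0.21 (4.12-fold lower, adjusted p = 0.000673). Zfp638, counted here too, and Zfp280b (-1.59 ± 0.36, adjusted p = 0.0142) were the others. Zfp280b lost its call without MLN sample 3 (adjusted p = 0.0571; range across settings 0.00776 to 0.0571). The 13 that did not pass ran from -0.87 ± 0.47 for Zfp280d to 0.40 ± 0.23 for Zfp219. They include Zfp451, a SUMO ligase (-0.59 ± 0.29), Zfp292 (-0.40 ± 0.40), Zfp687 and Zfp592 of the ZMYND8 complex known in human cells (0.16 ± 0.23 and 0.05 ± 0.34), and Zfp746, the Parkin substrate PARIS (-0.14 ± 0.23). The other passing probes of Zfp292, dimmer but detected on all arrays, gave 1.59 ± 0.63 and 1.13 ± 0.63, and neither passed the test.

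**Figure D4:**
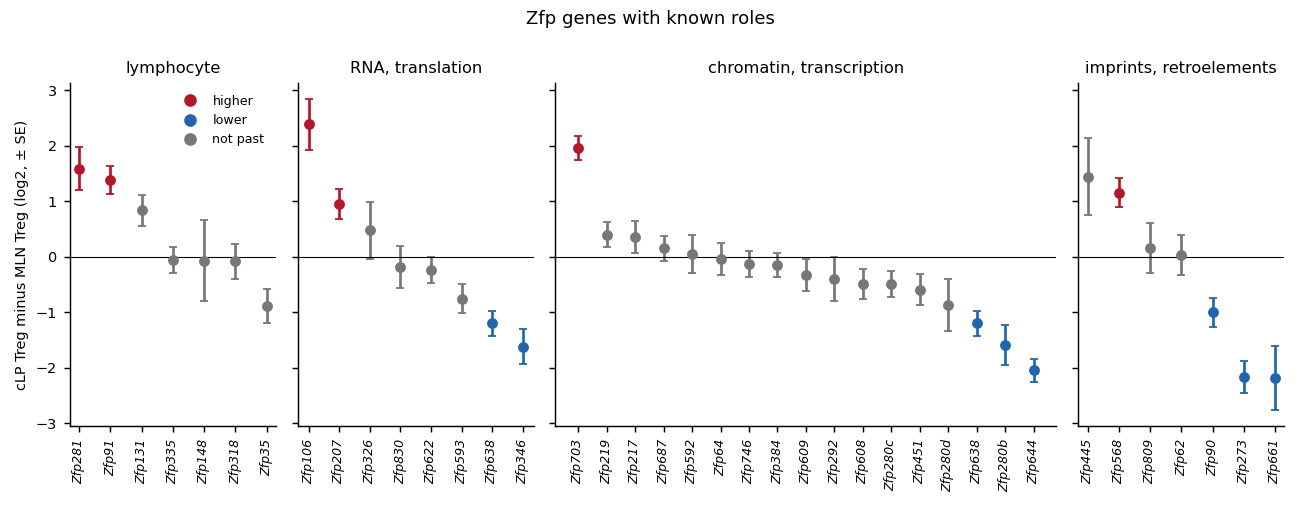
Difference (cLP Treg minus MLN Treg, log2, ± SE) of the measured Zfp genes in 4 role groups, each sorted by difference, with red for higher, blue for lower and grey for not past the test. The lymphocyte group holds 2 higher and no lower genes, the RNA group 2 and 2, the chromatin group 1 and 3, and the group of imprint and retroelement repressors 1 and 3; Zfp638 stands in 2 groups, and Zfp703 and Zfp273 are lower bounds in the text.

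Of 7 measured Zfp genes linked to imprints or retroelements, 1 was higher (14.3%) and 3 were lower (42.9%), with a median of 0.04. Zfp568, the KRAB protein that silences a placental Igf2 transcript in mice, measured 7.59, 7.69 and 7.26 in cLP Treg against 6.20, 6.75 and 6.11 in MLN Treg. It was 1.16 ± 0.26 higher (adjusted p = 0.0134), a call that did not survive leaving out MLN sample 1 or MLN sample 3 (adjusted p = 0.0601 and 0.0531; range across settings 0.00734 to 0.0601). Zfp445, which with Zfp57 maintains imprints, measured 10.59, 9.82 and 8.09 in cLP Treg against 7.26, 9.10 and 7.83 in MLN Treg. The groups overlapped and the difference of 1.44 ± 0.70 did not pass (adjusted p = 0.156). Zfp809, which recognises the primer binding site of murine leukaemia viruses, had 0.16 ± 0.45 and Zfp62 had 0.04 ± 0.36, neither past the test.

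Zfp90, a human isoform of which is known as a FOXP3-binding protein that links FOXP3 to the corepressor TRIM28, measured 7.37, 7.16 and 7.84 in cLP Treg against 8.19, 8.64 and 8.55 in MLN Treg. It differed by -1.0 ± 0.26 (adjusted p = 0.0232) without overlap, but did not pass once MLN sample 2 or 3, or cLP sample 1 or 2, was left out (adjusted p = 0.0852, 0.0771, 0.0536 and 0.0639; range across settings 0.00646 to 0.0851). Zfp273 and Zfp661, both described above, were the other lower genes of this group. The role groups are small, and their shares were not tested against each other.

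A hand-written list of genes for proteins that KRAB zinc finger proteins recruit, with further chromatin silencing genes such as Atrx, Daxx and Dnmt1, was counted likewise. Of 21 measured genes out of 29 on the array, 1 was higher (4.76%, against 12.1% of all genes), 5 were lower (23.8%, against 20.4%) and 15 did not pass. The median difference was -0.57 with 17 of 21 differences below 0, and all 3 cLP values lay below all 3 MLN values for 10 genes and above them for 1. Trim28, the scaffold corepressor itself, averaged 11.12 in cLP Treg and 11.31 in MLN Treg (-0.18 ± 0.23, adjusted p = 0.589). Setdb1 averaged 7.72 in cLP Treg and 8.45 in MLN Treg (-0.73 ± 0.33, adjusted p = 0.129). Atrx, a chromatin remodeller at heterochromatin, was higher (1.97 ± 0.35, adjusted p = 0.0057). The largest falls were those of Rbbp7, a histone-binding subunit of deacetylase complexes (-1.77 ± 0.40), Chd3, a remodeller of the NuRD complex (-1.47 ± 0.24), and Morc2a, an ATPase that works with the HUSH complex (-1.32 ± 0.24). The count of lower genes was 12 with arrays scaled to their medians and 11 in the deposited values.

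Genes of other name stems that mostly mark zinc finger proteins were measured for comparison. Of 28 genes matched by the stem Zbtb, 6 were higher (21.4%, against 12.1% of all genes) and 8 lower (28.6%, against 20.4%). Their median difference was 0.27. Most Zbtb genes join fingers to a BTB domain. The match was by name alone and took in Zbtb8os, counted as lower, which is not such a gene. Zbtb18 fell the most (-4.30 ± 0.47, adjusted p = 0.000848), Zbtb24 fell by 2.37 on the log2 scale, and Zbtb26, undetected on the cLP arrays, was at least 6.53-fold lower. Zbtb21 (2.28 ± 0.26), Zbtb10 (2.19 ± 0.31) and Zbtb25 (1.43 ± 0.30) rose the most. Of 10 Zscan and Zkscan genes, whose fingers follow a SCAN domain, none was higher and 4 were lower (40%, against 20.4%), with a median of -0.81 and all 10 differences below 0. Among the 4 that passed, the 3 largest falls were those of Zkscan1 (-1.64 ± 0.23), Zkscan14 (-1.10 ± 0.27) and Zscan26 (-0.90 ± 0.26). Zscan20 had a larger difference of -2.03 ± 0.82 and did not pass (adjusted p = 0.0976). The groups of name stems were not tested against each other.

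Zfp genes often stand side by side in the genome, the result of repeated duplication. Chromosome 7 held 45 of the 186, of which 18 were lower (40.0%) and 3 higher. Of all genes tested on that chromosome, 22.9% were lower and 9.66% higher. Chromosome 17 held 22, with 7 lower (31.8%, against 20.3% of all genes there) and 2 higher (against 8.78%). Chromosome 13 held 17, with 3 lower (17.6%, against 16.3%) and none higher (against 19.6%). On chromosome 9 none of 9 was lower (against 17.3%) and 1 was higher (against 13.9%). A run was counted where at least 3 Zfp genes followed each other with no other measured gene between them. There were 9 such runs with 51 genes, of which 17 were lower and 3 higher, while of the 135 genes outside runs 35 were lower and 11 higher. Over all 186 the shares were 28% lower and 7.53% higher, and over all genes tested 20.4% and 12.1%. Genes inside and outside runs were not tested against each other. Near-identical sequence among neighbours could let a probe pick up more than 1 of them, and this was not examined.

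The longest run on chromosome 7 held 9 genes in the order Zfp84, Zfp790, Zfp940, Zfp27, Zfp74, Zfp568, Zfp82, Zfp566 and Zfp382. Of these, 6 were lower, while Zfp568 was higher in their midst. Among the 6, Zfp74 was undetected on the cLP arrays, where the rule nearly fixes the call. Zfp82, to its side, measured 5.41, 6.30 and 5.35 in cLP Treg against 7.71, 7.75 and 7.59 in MLN Treg (-2.0 ± 0.30, adjusted p = 0.0027). Zfp940 (-0.24 ± 0.43) and Zfp382 (0.76 ± 0.27, adjusted p = 0.0687) did not pass. In a second run of 5, 3 were lower (Zfp235, Zfp61 and Zfp94), and Zfp180 and Zfp93 did not pass. Zfp180 measured 8.86, 9.61 and 9.65 in cLP Treg against 9.74, 9.78 and 9.05 in MLN Treg (-0.15 ± 0.32). Zfp93 had the most scattered values of the 186, at 4.65, 5.33 and 9.01 in cLP Treg against 7.16, 9.52 and 5.25 in MLN Treg (-0.98 ± 1.34). Differences within the run of 5 spanned -4.22 to -0.15, and within the run of 9 -2.41 to 1.16. Whether neighbours moved together was not tested. A run of 10 on chromosome 13 held 2 lower genes, a run of 8 on chromosome 17 held 2, and a run of 6 on chromosome 6 held none and 1 higher. Of all genes tested on chromosomes 13, 17 and 6, 16.3%, 20.3% and 22.3% were lower.

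**Figure D5:**
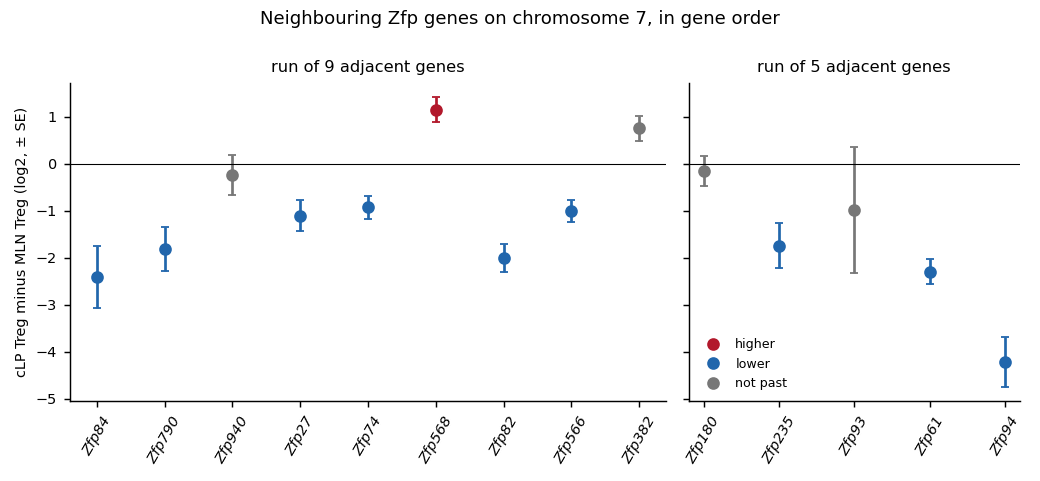
Difference (cLP Treg minus MLN Treg, log2, ± SE) of the Zfp genes in the runs of 9 and of 5 on chromosome 7, in gene order, with red for higher, blue for lower and grey for not past the test. Zfp568 at 1.16 stands among 6 lower neighbours in the run of 9, and Zfp94 at -4.22 ends the run of 5; Zfp74, undetected on the cLP arrays, is plotted at its fitted difference.

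The differences of the 120 Zfp genes that did not pass ran from -2.71 to 2.44, 87 of them below 0, and 9 exceeded 1 in size. Zfp597 measured 4.60, 8.74 and 6.39 in cLP Treg against 9.20, 9.44 and 9.22 in MLN Treg (-2.71 ± 0.89, adjusted p = 0.0526). Zfp52 measured 10.10, 8.30 and 6.35 in cLP Treg against 6.27, 5.11 and 6.06 in MLN Treg (2.44 ± 0.85, adjusted p = 0.0627). In both genes the groups did not overlap, and the cLP samples were spread over more than 3 log2 units. These 2 were named after their values were seen, as the largest differences in each direction without a call.

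At the other end, the 5 Zfp genes detected on all arrays with the smallest differences were Zfp1, Zfp738, Zfp617, Zfp64 and Zfp28. Zfp1 measured 6.88, 7.30 and 7.38 in cLP Treg against 7.19, 7.69 and 6.62 in MLN Treg (0.02 ± 0.32), and Zfp617 measured 5.73, 6.16 and 5.89 in cLP Treg against 6.04, 6.14 and 5.71 in MLN Treg (-0.03 ± 0.23). Zfp738 (-0.03 ± 0.35), Zfp64 (-0.04 ± 0.29) and Zfp28 (-0.04 ± 0.29) lay as near to 0. The smallest difference that was called among Zfp genes detected in both groups was 0.81 in size.

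Probes of one gene mostly moved to the same side. Of 58 Zfp genes with more than 1 passing probe, 45 had all probes on the same side and 13 did not. Of the 29 called genes among them, 15 had another probe past the threshold in the same direction and 2, Zfp266 and Zfp654, had one past it in the opposite direction. Another 7 genes that did not pass by the reported probe, the brightest, had a second probe that did. In Zfp655, the reported probe gave -0.26 ± 0.33 and the dimmer one 1.93 ± 0.30 (adjusted p = 0.00316). In Zfp157 they gave 0.81 ± 0.39 and -1.25 ± 0.25. Which transcript each probe reads was not analysed here, and agreement between probes was not counted over all genes.

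Around the detection threshold, Zfp711, Zfp287 and Zfp74 were the last genes admitted, with third-highest detection fractions of 0.954, 0.955 and 0.958. Zfp366 and Zfp598, at 0.95, and Zfp820, at 0.942, were the first left out. Their mean levels were 5.68 in cLP Treg and 5.60 in MLN Treg for Zfp711, and 5.43 in cLP Treg and 5.50 in MLN Treg for Zfp366.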

How the data were processed

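Sorted Treg from colonic lamina propria (3 arrays) and mesenteric lymph node (3 arrays) were profiled on Illumina bead arrays, for which the submitters' processing notes name GenomeStudio 1.6.0. The deposited table without normalization gives an intensity per probe and array, and a detection fraction that was taken as 1 minus the detection p (per the file headers and the values). The authors also deposited log2 values, whose scaling to the 75th percentile was found from the files. The array manifest is not given in the sources used here; all 45281 probes of the 2 tables were matched through their signals within 0.1, and 34885 carried 1 gene symbol. No sample column was left unlisted (0 columns).

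Intensities were corrected by normexp with an offset of 16, quantile normalised and tested with limma 3.58.1 (R 4.3.3), for each gene on the probe of highest mean among those detected on at least 3 arrays. Adjusted p-values are Benjamini-Hochberg over 9157 genes. Named are the 10 largest rises and falls past the threshold, the measured genes of 4 role lists, the 5 smallest differences, the genes beside the detection threshold, up to 5 genes whose probes differ in sign, and the 3 largest rises and falls of the corepressors and relatives; the genes undetected in 1 group, those of the runs and those holding a motif were named after their values were seen. Lists of Treg, B cell, plasma cell, myeloid, epithelial, stromal, mast and innate lymphoid, cytotoxic and erythroid markers were counted likewise. The Zfp genes, lists and tests were chosen with earlier results of these data known. The method was tested on simulated data. Alternatives changed the background correction, scaling, filter, probe choice and samples. The number of arrays limits the precision.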

Additional observations from a re-analysis of the deposited data

How the results depend on the processing

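Over 16 alternatives, 838 of 922 values of 59 named genes kept their side of the threshold, 68 lost a call, 16 gained one and no called difference reversed; in 62 values of genes not past the test the sign differed. Against 14 higher and 52 lower Zfp genes, scaling to medians gave 7 higher and 80 lower, the deposited values 7 higher, and detection on all 6 arrays 24 lower, where fewer genes are tested. The median difference of -0.51 became -0.30 without background correction, -0.80 with median scaling, -0.30 with the median of all genes set to 0, -0.41 in the deposited values, -0.14 without the filter and -0.31 with detection on all 6 arrays. All genes lower numbered 3038 with median scaling, against 1864. Corepressor genes lower, 5 in the values used, were 12 with median scaling, 11 in the deposited values, and 3 each with the median set to 0 and with detection on all 6 arrays; 2 were higher with detection on all 3 arrays of a group. The cause of these shifts was not tested.

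Leaving out 1 sample at a time gave 4 to 13 higher and 34 to 59 lower Zfp genes, with 4 higher without MLN sample 1, 8 without MLN sample 3 or cLP sample 2, and 34 lower without MLN sample 2. The median ran from -0.60 to -0.48, all genes higher from 743 to 1178 and all genes lower from 1038 to 2047 (1038, 1115 and 1182 without MLN sample 1, 2 and 3), corepressors higher from 1 to 2 and lower from 3 to 4. Whether replicate numbers pair the samples is not settled. Deviations of same-numbered samples correlated at -0.165, -0.105 and -0.0107, and those of other pairs at -0.128 to 0.234. Deviations from means of 3 samples cannot decide it. With the replicate block, 9 Zfp genes were higher and 49 lower, and 3 corepressors were lower.

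There were 3 arrays a group, with more scatter among the cLP samples. Dim probes carry the smallest margin over background. The cLP signal was 2.61 to 3.18 times background, against 3.33 to 4.10 times on the MLN arrays. How firm the calls were was not counted by probe brightness. Genes detected on some cLP arrays carry background in their cLP means, and cross-hybridisation between related Zfp genes was not examined.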
